A study of Mus musculus with 22 samples.

Results

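The microRNAs mmu-miR-155-5p, mmu-miR-146a-5p and mmu-miR-146b-5p, all tied to inflammation, were followed in cultured mouse hepatocytes treated with cyclosporin A (CsA). CsA inhibits calcineurin, is given against graft rejection and can injure the liver. The 3 miRNAs are among the 1247 miRNA entries of the array and were picked by name, not by their signal. The arrays were 22 one-colour Agilent mouse miRNA arrays, each read from 1 total RNA sample of primary hepatocytes of C57Bl6 mice, cells isolated from liver and kept in medium with fetal bovine serum. By the names of the array files there were 3 arrays of 10 µM CsA and 2 of 50 µM CsA after 24 h, 3 of 10 µM and 3 of 50 µM after 48 h, and, as the solvent group, 5 arrays of 0.5% DMSO after 24 h and 6 after 48 h. The treatment note in the labels speaks of HepG2 cells, a human hepatoma line, while the cell type and the remaining labels give primary hepatocytes of mouse. The design text calls the samples biological replicates without saying whether they came from separate mice or cultures, so the p-values measure only the spread between these samples. The labels also sort the arrays into 3 experiment numbers, each with CsA and DMSO arrays of both times. The main tests did not pair arrays by this number.

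miRNAs are short RNAs that pair with messenger RNAs mainly through a seed near their 5′ end and lower their translation and stability. miR-155 is cut from the noncoding transcript Mir155hg, which NF-kB and AP-1 switch on in macrophages and lymphocytes, and it targets brakes on cytokine signalling such as Socs1. miR-146a and miR-146b come from separate genes, are induced by NF-kB after Toll-like receptor signals, and target the adaptors Irak1 and Traf6, which closes a negative feedback loop. In liver, miR-155 and miR-146a are best known from Kupffer cells, the resident macrophages, and from hepatocytes under inflammatory stress.

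The sequences are shown because they set which of these miRNAs can share targets and which probes have to tell near-identical RNAs apart. They are from RefSeq on build GRCm38.p6, written 5′ to 3′, with the seed (bases 2 to 8) in capitals; all 3 names matched an entry.
miR-155-5p: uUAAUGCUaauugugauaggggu
miR-146a-5p: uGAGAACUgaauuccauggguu
miR-146b-5p: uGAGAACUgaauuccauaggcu
Among the 1738 mature mouse entries of that table, the seed UAAUGCU occurred in miR-155-5p alone (1 entry), and GAGAACU in miR-146a-5p and miR-146b-5p (2 entries). The 2 miR-146 sequences were the same at 20 of 22 positions and differed, counted from the 5′ end with miR-146a-5p first, by G18A and U21C. miR-155-5p lies on the plus strand at chr16:84714143-84714165, inside the noncoding gene Mir155hg. miR-146a-5p lies on the minus strand at chr11:43374435-43374456, in the gene Mir146. miR-146b-5p lies on the plus strand at chr19:46342790-46342811, in the gene Mir146b, within the span of the long noncoding gene Gm36493.

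The sources disagreed on which array is which sample. Each of the 22 columns of the authors' value table could be rebuilt from 1 array file, and names agreed for 6 columns and differed for 16. None of these 16 crossed time points, and the 8 among CsA arrays swapped 10 µM with 50 µM. Comparisons with both doses pooled are therefore the same under either naming, and every comparison of a single dose is given under both. The arrays lay on 3 slides, none had a saturated spot, and the software detected 201 to 400 miRNAs per array. The 2 arrays with the fewest detected miRNAs (201 and 206) and the most spots rejected as outliers (10.3% and 9.24%) were CsA arrays at 48 h, filed as 50 µM replicates 2 and 1.

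mmu-miR-155-5p was near the limit of detection and the only one of the 3 to pass it. A probe was taken as above background where the software's flag put a share of 0.5 or more of the probe's spots well above it. Of the 2 probes for mmu-miR-155-5p, each printed in 20 spots, the brighter was above background on 16 of 22 arrays and the dimmer on 10. The software's own detection call, which pools the probes, was positive on 21 of 22. The brighter probe's processed signal ran from 10.6 to 58.5 with a median of 17.4, on arrays where negative control spots averaged 0.612 to 3.41. All of its 415 used spots (100%) were positive and significant by the software, and 292 of them (70.4%) were well above background. It passed on 4 of 5 CsA arrays and 4 of 5 DMSO arrays at 24 h, and on 4 of 6 CsA arrays and 4 of 6 DMSO arrays at 48 h. The arrays that missed, under their file names, were CsA 50 µM at 24 h replicate 3, CsA 50 µM at 48 h replicates 1 and 2, DMSO at 24 h replicate 3, and DMSO at 48 h replicates 1 and 6. The 2 CsA arrays at 48 h missed with signals of 28.1 and 17.6, above those of several arrays that passed. Their negative control spots had SDs of 5.64 and 4.89, against a median of 2.60 over all arrays. The passenger arm, miR-155-3p, was above background on 0 of 22 arrays.

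**Figure D1:**
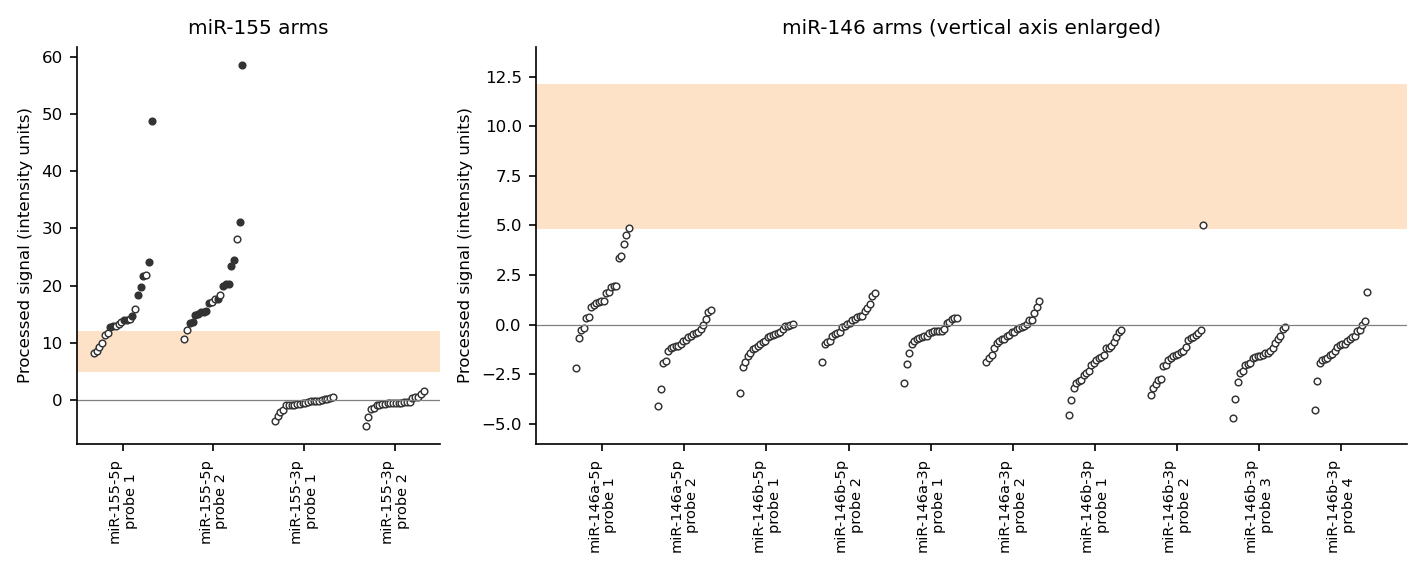
Processed signal (vertical axis, intensity units) of every probe for the arms of miR-155 (left) and miR-146 (right, enlarged axis) on the 22 arrays, 1 point an array, sorted within each probe; filled points are above background and open points are not, and the band spans each array's negative control mean plus 2 SD (4.82 to 12.1). Only the miR-155-5p probes carry filled points, 10 arrays for probe 1 and 16 for probe 2.

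Neither miR-146 was detected in these hepatocytes in any group. mmu-miR-146a-5p was above background on 0 of 22 arrays, the software detected it on 0, and 0 of the 419 used spots of its brighter probe were well above background. That probe's signal ran from -2.19 to 4.86 with a median of 1.20, and it never exceeded its array's negative control mean plus 2 SD. It averaged 1.71 ± 1.64 (SD, n = 5) in CsA and 1.68 ± 1.15 (n = 5) in DMSO at 24 h. At 48 h it averaged 1.11 ± 2.35 (n = 6) in CsA and 1.60 ± 1.88 (n = 6) in DMSO, so the groups overlapped at both times. A weaker sign was present: 120 of its 419 spots (28.6%) were positive and significant, and a share of 0.5 or more of the spots were so on 4 arrays. For its dimmer probe this share was 5.53%.

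mmu-miR-146b-5p gave even less. It was above background on 0 of 22 arrays and detected by the software on 0, and 0 of 415 spots of its brighter probe were well above background. Its signal ran from -1.86 to 1.61 with a median of 0.0678, was below 0 on 10 arrays, and 57 of 415 spots (13.7%) were positive and significant. It averaged 0.299 ± 0.892 (SD, n = 5) in CsA and -0.225 ± 0.515 (n = 5) in DMSO at 24 h, and 0.115 ± 0.615 (n = 6) in CsA and -0.0117 ± 1.21 (n = 6) in DMSO at 48 h, with overlapping groups. The other arms, miR-146a-3p and miR-146b-3p, were above background on 0 of 22 arrays each. In the authors' value table, both miR-146 arms of each gene sat at the table's minimum of -1 (log2) in all 22 columns. No fold change is given for a miRNA that is below background in both groups, and whether CsA changed the miR-146 miRNAs was not detectable at this sensitivity.

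**Figure D2:**
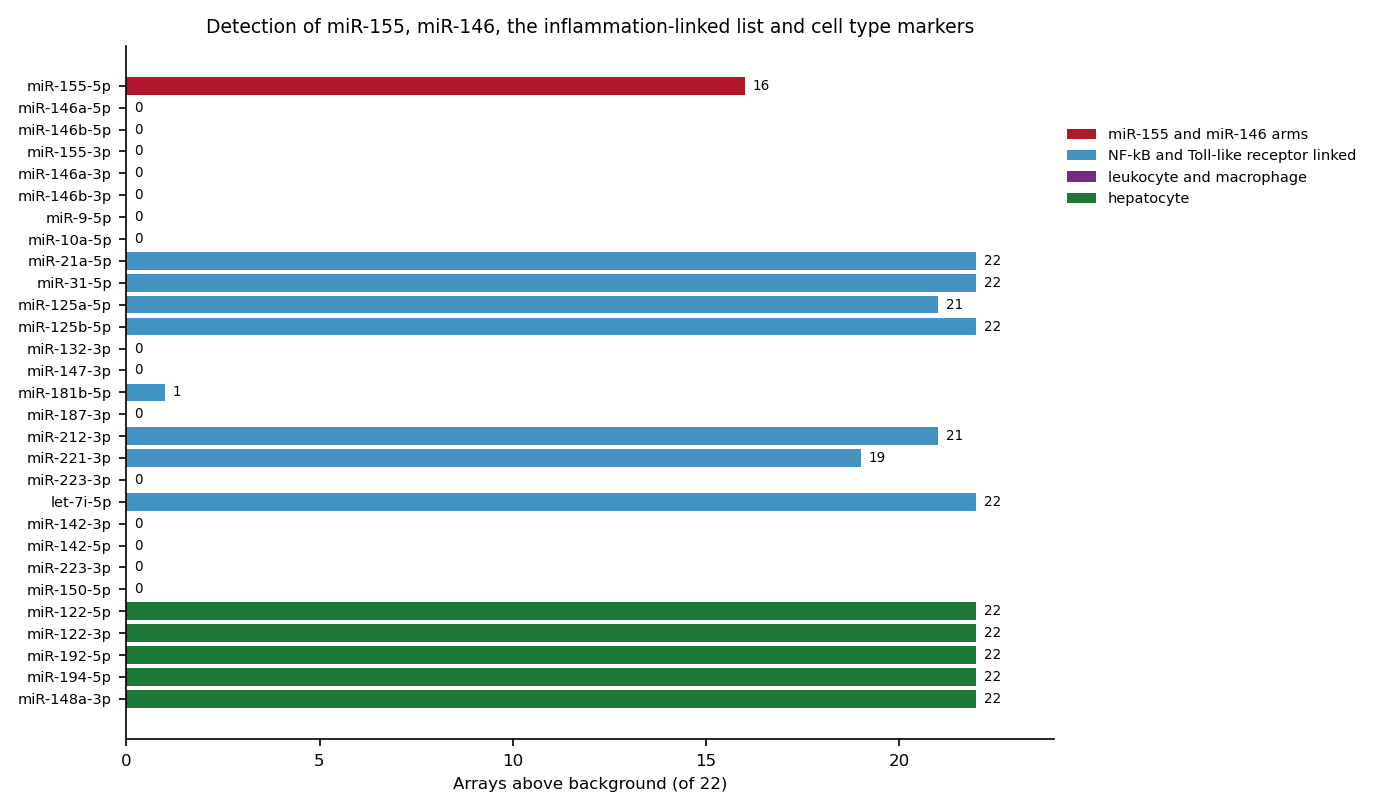
Number of arrays (of 22) on which each miRNA was above background, for the arms of miR-155 and miR-146, the 14 miRNAs of a list linked to NF-kB and Toll-like receptor signalling, 4 leukocyte markers and 5 hepatocyte markers. The 5 hepatocyte markers were above background on all 22 arrays, the leukocyte markers on 0, and miR-155-5p on 16.

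After 24 h, miR-155-5p did not differ between CsA and DMSO beyond the spread of the arrays. Signals were divided by each array's 75th percentile over 281 probes detected on all arrays, so a scaled signal of 1 equals that percentile, and values under a floor of 0.0471 entered the tests at the floor. The scaled signals were 0.0555, 0.0699, 0.0763, 0.0543 and 0.0379 in CsA, against 0.0819, 0.0477, 0.0512, 0.0472 and 0.0583 in DMSO. The 2 groups overlapped almost fully, and the highest array was a DMSO one. The log2 difference was 0.092 ± 0.19 (SE; 95% interval -0.30 to 0.49), with an adjusted p of 1 in limma, adjusted by the Benjamini-Hochberg method over the 288 miRNAs tested. In that comparison 0 of 288 miRNAs (0%) passed an adjusted p of 0.05, and 19 had an unadjusted p under it.

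After 48 h, miR-155-5p was higher on most CsA arrays, but the difference did not pass the threshold over all miRNAs. Its scaled signal had a lowest value of 0.0521, a median of 0.0846 and a highest of 0.0967 in 6 CsA arrays, against 0.0441, 0.0535 and 0.0731 in 6 DMSO arrays. Of the CsA arrays, 4 lay above all 6 DMSO arrays and the other 2 lay among them. Means were 0.0785 ± 0.0180 in CsA and 0.0550 ± 0.00964 in DMSO (SD, n = 6 each). The 12 arrays carried 3 experiment numbers, by which these tests did not pair them. The log2 difference was 0.48 ± 0.17 (SE; 95% interval 0.12 to 0.84), a 1.39-fold higher mean, with an adjusted p of 0.111 in limma. An exact two-sided permutation test of miR-155-5p alone over the 12 arrays gave an unadjusted p of 0.0238. In that comparison 3 of 288 miRNAs passed (1.04%), 1 of them higher in CsA, and 81 had an unadjusted p under 0.05 in limma. The median log2 difference of all tested miRNAs was 0.10, and 50 miRNAs, miR-155-5p included, rose by at least as much as miR-155-5p did.

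That result rested on single arrays and on the scaling. In limma the adjusted p fell under the threshold when 1 of 3 arrays was left out. It was 0.0495 without the CsA array filed as 10 µM replicate 1 (38 miRNAs called), 0.0356 without the one filed as 50 µM replicate 2 (27 called), and 0.0331 without DMSO replicate 5 (59 called). Within slides the log2 difference was 0.61 on slide 1 (4 CsA and 1 DMSO array) and 0.27 on slide 3 (2 and 3), while slide 2 held no CsA array of that time. The ranges of array measures also differed between the groups. The percentile that set the scale was 253 to 605 on CsA arrays and 252 to 355 on DMSO arrays. The 605 was 1 array, filed as 10 µM replicate 3, and the next highest CsA array, at 337, lay within the DMSO range. Outlier spots made up 3.94% to 10.3% of spots on CsA arrays and 3.12% to 8.40% on DMSO arrays. The part of these array measures in the result was not tested.

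**Figure D3:**
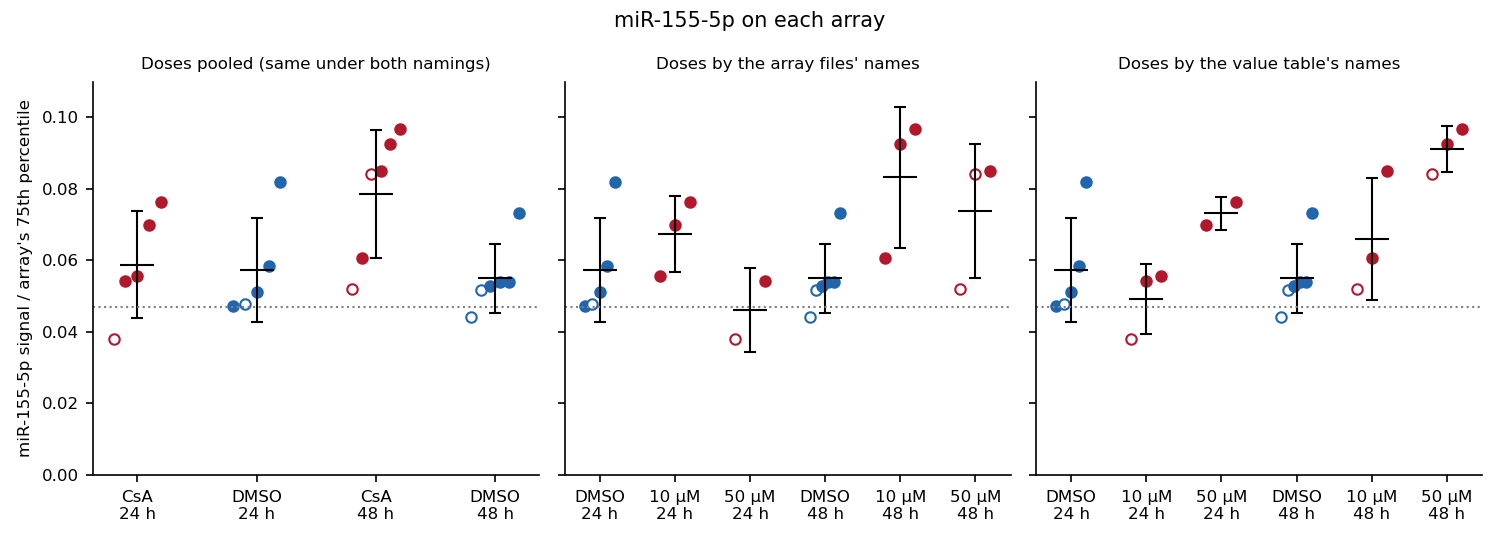
Scaled signal of the brighter miR-155-5p probe (vertical axis, processed signal over the array's 75th percentile) on every array, with both doses pooled (left), by the array files' dose names (middle) and by the value table's (right). Filled points are above background and open points are not, black marks are means ± SD, and the dotted line is the floor of 0.0471; under the value table's names the 3 arrays of 50 µM at 48 h all lie above the 6 DMSO arrays.

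Under the array files' dose names, no single dose reached the threshold; both doses of a time were set against the same DMSO arrays. At 24 h, 10 µM gave 0.0555, 0.0699 and 0.0763 (log2 difference from DMSO 0.25 ± 0.21, adjusted p 0.861 in limma) and 50 µM gave 0.0543 and 0.0379 (-0.15 ± 0.25, adjusted p 1). At 48 h, 10 µM gave 0.0606, 0.0925 and 0.0967, and the log2 difference from DMSO was 0.57 ± 0.21 with an adjusted p of 0.0963 in limma. At 48 h, 50 µM gave 0.0841, 0.0521 and 0.0851, and the log2 difference was 0.39 ± 0.21 with an adjusted p of 0.574. Each 48 h dose had 2 of 3 arrays above all DMSO arrays. The share of the 288 miRNAs called was 6.25% for 10 µM and 0.347% for 50 µM at 48 h, and 0% for both doses at 24 h. For 10 µM at 48 h the call was made without 10 µM replicate 1 (adjusted p 0.0140 in limma, 88 miRNAs called) or without DMSO replicate 5 (0.0309, 68 called). The direct comparison of 50 µM with 10 µM at 48 h gave -0.18 ± 0.24 (95% interval -0.68 to 0.32).

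Under the value table's dose names, 50 µM at 48 h passed the threshold. At 24 h, 10 µM then held 0.0555, 0.0543 and 0.0379 (log2 difference from DMSO -0.10 ± 0.18, adjusted p 1 in limma) and 50 µM held 0.0699 and 0.0763 (0.38 ± 0.21, adjusted p 0.401, with 3.82% of miRNAs called). At 48 h, 10 µM held 0.0606, 0.0521 and 0.0851, and the log2 difference from DMSO was 0.23 ± 0.17 with an adjusted p of 1 (1.04% called). At 48 h, 50 µM held 0.0841, 0.0925 and 0.0967, all above the highest DMSO array at 0.0731. Here miR-155-5p rose: the log2 difference was 0.73 ± 0.17 (95% interval 0.36 to 1.09), 1.66-fold, with an adjusted p of 0.00294 in limma. The exact two-sided permutation p was 0.0238, the smallest that 3 against 6 arrays allow.

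That call stood among many. In the same comparison 109 of 288 miRNAs were called (37.8%), 79 higher (27.4%) and 30 lower, and 48 (16.7%) lay wholly above DMSO. The count was 72 without the 50 µM array at 0.0967 and 173 without the DMSO array at 0.0731. By size of rise miR-155-5p ranked 68 of 288. Its own rise over 10 µM at 48 h was 0.49 ± 0.20 (adjusted p 0.0765 in limma, where 28.5% of miRNAs were called), and the groups overlapped. All 3 arrays of 50 µM at 48 h lay on slide 1, beside 1 DMSO array, and the difference on that slide was 0.82. With slide as a block the difference from DMSO was 0.89 and that from 10 µM was 0.72, with an adjusted p of 0.0130 in limma. One of the 3 arrays, filed as 50 µM replicate 1 under both namings, was not above background for miR-155-5p and was among the 2 with the fewest detected miRNAs. Without those 2 arrays the difference from DMSO was 0.78, with an adjusted p of 0.00588 in limma. It was called too when any 1 CsA or DMSO array was left out, with adjusted p from 0.000508 to 0.0203.

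**Figure D4:**
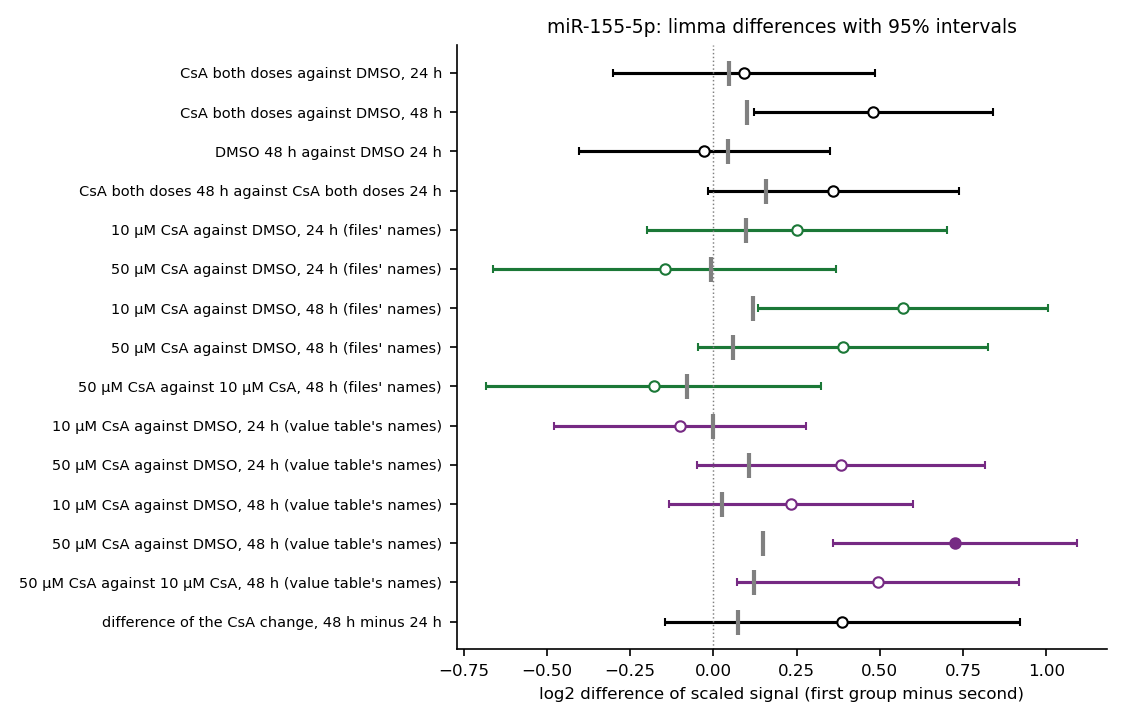
Log2 difference of the scaled miR-155-5p signal (horizontal axis, first group minus second) with 95% intervals from limma for 15 contrasts; black is pooled doses or time, green the array files' dose names and purple the value table's. A filled point passed an adjusted p of 0.05, which only 50 µM at 48 h under the value table's names did (0.73), and grey ticks are the median difference of all 288 tested miRNAs.

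The size of the 48 h difference followed the scaling of the arrays. With the 75th percentile taken over all probes, the median log2 difference of all tested miRNAs for pooled CsA against DMSO moved to -0.16, a shift of -0.26, and miR-155-5p's difference was 0.082 ± 0.13. Relative to the median of all miRNAs, miR-155-5p was 0.38 higher under the scaling used here and 0.24 higher with all probes. For 50 µM at 48 h under the value table's names the same change gave 0.17 ± 0.16 (adjusted p 0.435 in limma), which was 0.30 above the median of all miRNAs, beside 0.58 under the scaling used here. The split of calls there turned from 79 higher and 30 lower to 40 higher and 71 lower. Normexp background correction with an offset of 50 followed by quantile normalisation gave 0.061 ± 0.041 for pooled CsA and 0.081 ± 0.046 for 50 µM, and the offset by its construction shrinks differences of dim probes.

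The software's total gene signal and the authors' value table turned the pooled direction. They gave -0.15 ± 0.41 and -0.58 ± 0.59 for pooled CsA against DMSO at 48 h. In both, miR-155-5p was at the minimum on 1 CsA array, filed as 50 µM replicate 2. The value table held values of 2.72 to 4.01 (log2) on the other 21 arrays. Without that array the differences were 0.35 ± 0.22 and 0.21 ± 0.19, with adjusted p of 0.295 and 0.480 in limma. For 50 µM at 48 h under the value table's names, a group without that array, the authors' own values gave 0.23 ± 0.68 (adjusted p 0.810 in limma), so no call was made there. The spread in that test is shared over all arrays, so the array at the minimum widened this SE from another group.

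**Figure D5:**
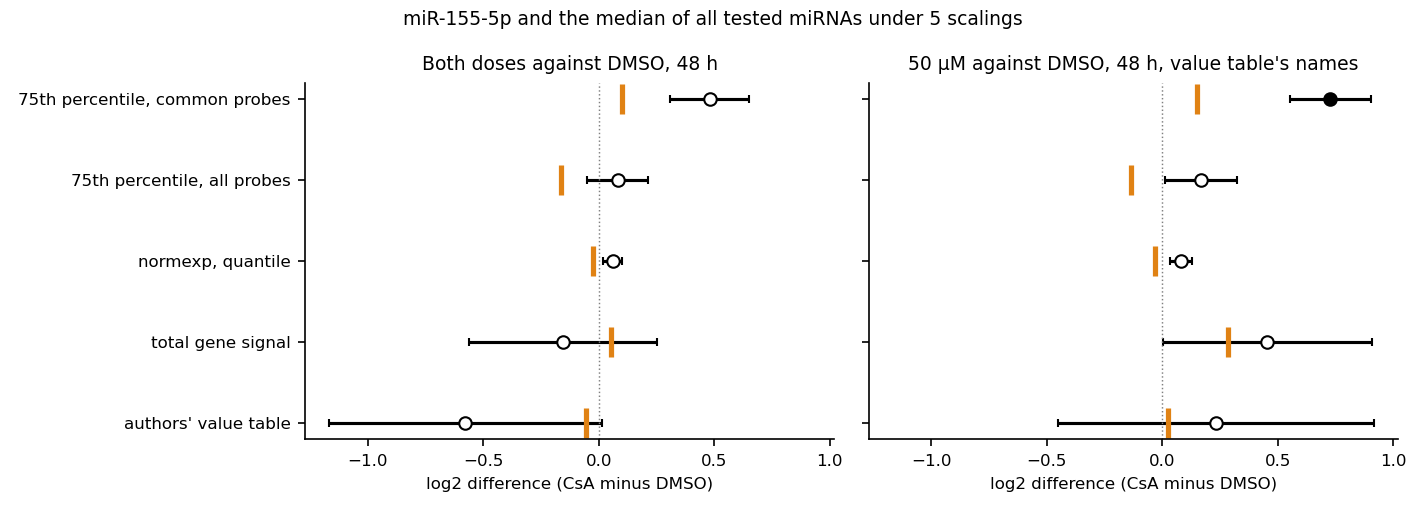
Log2 difference of miR-155-5p between CsA and DMSO at 48 h (points, ± SE from limma) and the median difference of all tested miRNAs (orange ticks) under 5 scalings, for both doses pooled (left) and for 50 µM by the value table's names (right). The filled point, 0.73, is the only one with an adjusted p under 0.05, and the pooled difference lies below 0 under the total gene signal and the authors' value table.

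Between the time points, miR-155-5p did not differ beyond the spread of the arrays in DMSO or in CsA. DMSO at 48 h against DMSO at 24 h differed by -0.028 ± 0.18 (95% interval -0.40 to 0.35; adjusted p 0.990 in limma), where 0% of miRNAs were called and 38 had an unadjusted p under 0.05. CsA at 48 h against CsA at 24 h, doses pooled, differed by 0.36 ± 0.18 (95% interval -0.017 to 0.74; adjusted p 0.310 in limma, 0.347% of miRNAs called). That interval only just includes 0, so a rise is not excluded. Of the 6 CsA arrays at 48 h, 4 lay above all 5 at 24 h. The difference between the CsA change at 48 h and that at 24 h was 0.39 ± 0.26 (95% interval -0.15 to 0.92; adjusted p 0.796), so a change of the CsA effect with time was not shown.

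The group means on the log2 scale spanned little. By the array files' names the order from high to low was 10 µM at 48 h (-3.62), 50 µM at 48 h (-3.80), 10 µM at 24 h (-3.91), DMSO at 24 h (-4.16), DMSO at 48 h (-4.19) and 50 µM at 24 h (-4.30), and all neighbours overlapped. By the value table's names it was 50 µM at 48 h (-3.46), 50 µM at 24 h (-3.78), 10 µM at 48 h (-3.95), DMSO at 24 h, DMSO at 48 h and 10 µM at 24 h (-4.26). Here the first (3 arrays) lay apart from the second (2 arrays), and all other neighbours overlapped. That gap was not tested, and the share of all miRNAs set apart in this way was not counted.

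The miRNAs whose scaled log2 signal followed miR-155-5p most closely over the 22 arrays were miR-6391 (Spearman rho 0.905, Pearson r 0.919), miR-1894-3p (0.882 and 0.900) and miR-3070b-3p (0.864 and 0.790), out of 218 candidates above background on at least 11 arrays. miR-6391 and miR-3070b-3p were above background on 11 arrays each and miR-1894-3p on 22. All points share the arrays' scaling, so the correlation is a description. In DMSO at both times the medians of miR-6391 and miR-3070b-3p were at the floor of 0.0471. Their correlations and differences therefore rest partly on floored values. For CsA against DMSO at 48 h, miR-6391 differed by 0.90 ± 0.25 (adjusted p 0.0571 in limma), miR-1894-3p by 0.85 ± 0.27 (0.0972) and miR-3070b-3p by 0.46 ± 0.20 (0.158). None of the 3 passed the threshold. They were picked for following miR-155-5p over these same arrays, so a likeness of their differences to that of miR-155-5p is not a separate result.

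Other miRNAs tied to NF-kB or Toll-like receptor signalling were described by a list. Of 14 listed, 8 were above background on at least 1 array and 7 were tested. miR-9-5p, miR-10a-5p, miR-132-3p, miR-147-3p, miR-187-3p and miR-223-3p were above background on 0 arrays. For CsA against DMSO at 24 h, 0 of the 7 passed the test, 5 had positive differences, and the median was 0.18, beside 0.046 over all 288 tested. At 48 h, 0 of the 7 had a positive difference, and the median was -0.31, beside 0.10 over all tested. The share of all tested miRNAs with a positive difference was not counted at either time. Of the 7, 1 passed the test as lower, beside 3 of all 288 called (1.04%), 2 of them lower. The other 6 had adjusted p of 0.110 to 0.761 in limma. Over time in DMSO, 0 of the 7 passed.

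The list member that fell at 48 h was miR-221-3p, known to target the cell cycle inhibitor Cdkn1b and above background on 19 of 22 arrays. In 6 CsA arrays its scaled signal had a lowest value of 0.0437, a median of 0.0496 and a highest of 0.0740. In 6 DMSO arrays these were 0.0899, 0.113 and 0.125. The CsA median lay near the floor of 0.0471 and the lowest value under it, so the size of the difference depends on the floor. The log2 difference was -0.99 ± 0.15 with an adjusted p of 0.000495 in limma. At 24 h it differed by -0.28 ± 0.16 (adjusted p 0.825).

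The hepatocyte label was checked against cell type markers. The 5 hepatocyte markers, led by miR-122-5p, the most typical liver miRNA, were above background on all 22 arrays, and their summed scaled signal was 46.4 to 58.6 in CsA and 44.5 to 56.4 in DMSO at 48 h. The 4 leukocyte and macrophage markers on the array (miR-142-3p, miR-142-5p, miR-223-3p and miR-150-5p) were above background on 0 arrays, with sums of 0.00338 to 0.0216 in CsA and 0.00396 to 0.0217 in DMSO at 48 h. Of 2 endothelial markers, miR-126-3p was above background on 20 arrays and miR-126-5p on 0. Of 5 stellate and mesenchymal markers, miR-145a-5p was above background on 12 arrays. The other 4 (miR-143-3p, miR-199a-3p, miR-199a-5p and miR-214-3p) were on 0. Each of these lists thus rested on 1 detected member, which does not settle whether such cells were present. At 48 h the stellate and mesenchymal sum was 0.0638 to 0.124 in CsA and 0.0330 to 0.133 in DMSO. The endothelial sum was 0.0845 to 0.162 in CsA and 0.0676 to 0.168 in DMSO. The biliary list (5 on the array) and the erythroid list (2) had 0 members above background. In a bulk sample, fewer cells of a type and less RNA per cell cannot be told apart, and the part of any other cell types in the miR-155-5p signal was not tested.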

How the data were processed

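Total RNA (miRNeasy columns, DNase I, integrity number above 8, per the labels' protocols) was labelled with an Agilent miRNA kit, although another label field names biotin. The authors deposited spot intensity values which the file headers credit to Feature Extraction 10.7.3.1, and a deposited table of log2 intensities; the submitters' processing notes name R 2.15.2. How the authors normalised it is not stated there, but flooring the total gene signal at 0.5, quantile normalisation and log2 rebuilt it. Each array held 49880 non-control spots for 3105 probes.

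The processed intensity was averaged over a probe's non-outlier spots, scaled to the 75th percentile of 281 probes above background on all arrays (188 to 605 by array), floored at 0.0471 (log2 -4.41) and put on a log2 scale, using each miRNA's brightest probe. Above background meant at least a share of 0.5 of the spots well above background. Of 1247 miRNAs, 290 were above background on at least 3 arrays; 2 of these were at the floor on all arrays, which left 288 to test.

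Differences were tested with limma 3.58.1 in R 4.3.3 (1 model with 4 pooled groups, 1 with 6 dose groups) and adjusted by the Benjamini-Hochberg method; calls use an adjusted p of 0.05. The limma step was tested on simulated independent normal values. These had no floor, no shift in scaling between arrays and no slide or experiment structure, so the simulation does not cover those features. Single values were also compared by exact two-sided permutation tests (SciPy 1.17.1). The number of arrays limits the precision.

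Named were miR-155, miR-146a and miR-146b with both arms, list miRNAs called in a pooled comparison or above background on no array, and the 3 tested miRNAs, above background on at least 11 arrays, of highest Spearman correlation with miR-155-5p. The markers miR-122-5p, miR-126-3p and miR-145a-5p were named after their values were seen. The miRNAs, lists and tests were chosen with earlier results of these data known. Main dose groups follow the array files' names, with the value table's names as an alternative. Alternatives covered scaling, background correction, filters, floor, probe, naming, slide and experiment number as blocks, and leaving out arrays. Those with the dimmer probe, no floor, other detection calls, the exact permutation test for 50 µM at 48 h under the value table's names, the value table's names together with another setting, or arrays left out for low detection or a value at the minimum were chosen after seeing the data. The study's design counts 24 arrays, of which 22 were used.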

Additional observations from a re-analysis of the deposited data

Results flagged for a closer look

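Of the miR-155-5p log2 values and the miR-146 signals in the pooled groups at each time, 1 array stood far from the others of its group: DMSO at 48 h filed as replicate 5, at -3.77 for miR-155-5p, against -4.41 to -4.21 on the other 5. Chance flags about 1 in 20 groups this way. The 4 pooled groups were screened for each of the 3 miRNAs, so 1 flag can arise by chance. Without it, CsA of both doses against DMSO at 48 h gave a log2 difference of 0.56.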

How the results depend on the processing

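For miR-155-5p in pooled CsA against DMSO at 24 h (log2 difference 0.092), the direction turned with normexp and quantile normalisation (-0.012), the total gene signal (-0.10, with or without the array at its minimum) and the dimmer probe (-0.088). At 48 h (0.48) it turned with the total gene signal (-0.15) and the authors' value table (-0.58). Leaving out 1 array gave 0.41 to 0.59, and the exact permutation test, unadjusted, put 0.48 past its threshold. DMSO over time (-0.028) turned to 0.048 in the authors' table with or without its array at the minimum, and ran from -0.11 to 0.11 when 1 array was left out. CsA over time turned to -0.63 in the authors' table and -0.22 with the total gene signal, and the difference of the CsA changes to -0.67 and -0.049. By file names at 24 h, 10 µM and 50 µM turned with the value table's names (-0.10 and 0.38). Its names and values together gave -0.011 and 0.26, also without its array at the minimum. The dimmer probe turned 10 µM (-0.051). By file names at 48 h, 10 µM turned with the authors' table and its names together (-1.39). 50 µM turned with the total gene signal (-0.74) and was called with the value table's names (0.73). Both turned there alone, in groups with the array at the minimum. Leaving out 1 array, 10 µM ran from 0.45 to 0.78. Its adjusted p in limma was 0.0140 without replicate 1 and 0.0309 without DMSO replicate 5. By file names 50 µM against 10 µM at 48 h (-0.18) turned with all-probe scaling (0.016), normexp and quantile (0.021), the authors' table and its names together (1.62, or 0.044 without its array at the minimum), the value table's names (0.49) and without the 2 arrays with the fewest detected miRNAs (0.061), and ran from -0.39 to 0.053 when 1 array was left out. By the value table's names, 50 µM at 24 h turned with the dimmer probe (-0.0045), 10 µM at 24 h ran from -0.16 to 0.036 when 1 array was left out, and 10 µM at 48 h turned in the authors' table (-1.39), with all-probe scaling (-0.0041) and with the total gene signal (-0.76). The call for 50 µM at 48 h (0.73) was lost in the authors' table (0.23), with all-probe scaling (0.17), normexp and quantile (0.081), the total gene signal (0.45) and a floor at 2 times the value (0.012), which by its construction put nearly all its values there. The rise of 50 µM over 10 µM at 48 h under those names was called with slide as a block (0.72), and ran from 0.34 to 0.69 when 1 array was left out, with an adjusted p of 0.0183 in limma without 10 µM replicate 3. Other causes were not tested. The undetected state of miR-146a-5p and miR-146b-5p held by any spot of any probe, the software's call and the authors' table (0 arrays each); miR-155-5p was on 10 to 21. miR-221-3p at 48 h was not called with a floor at 2 times the value (-0.23). Counts of called miRNAs moved most at 48 h when 1 array was left out: 1 to 59 for pooled CsA (3 as reported), 0 to 88 for 10 µM by file names (18), and 72 to 173 for 50 µM by the value table's names (109). Over the alternatives that kept the file names, counts ran from 0 to 2 for 50 µM at 48 h (1 as reported), 0 to 18 for 50 µM against 10 µM at 48 h (0) and 0 to 1 for 10 µM at 24 h (0), and were 0 for 50 µM at 24 h (0). With the authors' table and its names together they were 106, 68, 0 and 7. By the value table's names they ran from 1 to 19 for 50 µM at 24 h (11), 0 to 4 for 10 µM at 48 h (3) and 43 to 115 for 50 µM against 10 µM at 48 h (82). Pooled CsA at 24 h ran from 0 to 4 (0), DMSO over time from 0 to 10 (0) and CsA over time from 0 to 5 (1).

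Deviations of CsA and DMSO arrays from their group means, averaged per experiment number of the labels, correlated at 0.39, 0.05 and 0.30 at 24 h and at 0.71, 0.40 and 0.77 at 48 h, so the pairing was not settled at 24 h. With the experiment number as a replicate block, pooled CsA against DMSO at 48 h kept 0.48 and 24 miRNAs were called, and no miR-155-5p call changed. Low signal over background (10.6 to 58.5) limits all statements on miR-155-5p.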
